A study of Mus musculus with 27 samples.

Results

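Reactive astrocyte genes were described in the brains of mice infused with antibodies against the neuronal surface protein IgLON5. The set comprised 10 genes, Gfap, Vim, Serpina3n, Lcn2, Steap4, S1pr3, Timp1, Cd44, Cp and Aspg, chosen by name and not by the values in these samples, although results of the same data were known when the set was proposed. Each gene was found by matching its Ensembl identifier, without version, to its symbol in the GENCODE M21 annotation of the mouse genome build GRCm38. The 10 genes are 10 of 55487 in the count table, and all 10 were among the 20271 genes tested, which were those reaching 10 counts in 4 or more libraries.

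RNA-seq libraries came from whole dissected cortex (14 libraries) and hippocampus (13 libraries) of the hemisphere opposite the infused ventricle. All mice were male C57Bl/6J wild-type animals, 8 weeks old, with a pump feeding the right lateral ventricle at 0.25 µl per hour for 14 days. The groups were PBS (vehicle, 5 mice), pCtrl (human control IgG, 5 mice in the cortex and 4 in the hippocampus) and α-IgLON5#1 (affinity-purified antibodies from the plasma of a patient with anti-IgLON5 disease, 4 mice). The study's methods trace the control IgG to serum of a healthy donor, but the sample labels speak of a non-reactive monoclonal human IgG, and the name pCtrl is used here for the libraries labelled IgG. The 4 α-IgLON5#1 mice carried the numbers 8, 9, 16 and 17, and all their values rest on a single antibody pool. Cortex and hippocampus came from the same animals, except for pCtrl mouse 11, which gave cortex only.

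Astrocytes respond to injury, infection and inflammation with a change of state called reactivity. Their cytoskeleton gains the intermediate filaments GFAP and vimentin, and they secrete acute-phase proteins and protease inhibitors. Signals such as IL-6 family cytokines acting through gp130 and STAT3, interleukin-1 and interferons are known to drive parts of this programme. Several of the 10 genes are not particular to astrocytes: vimentin and Timp1 are also made by fibroblasts and endothelial cells, Lcn2 by neutrophils and endothelium, and Cd44 by leukocytes. The labels name neurons as the cell type, but markers of astrocytes, microglia, oligodendrocytes and endothelium were all present in every group, so the libraries are bulk tissue. In bulk tissue more cells of a type and more RNA per cell cannot be told apart.

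Library totals ranged from 19385642 to 58550621 counts. The α-IgLON5#1 hippocampi were shallower (19428512 to 32776892) than those of pCtrl (39479753 to 52212204). Levels are given in CPM, read counts scaled to a common library size after TMM normalization. Differences are log2 fold changes with their standard error (SE) and Benjamini-Hochberg adjusted p-values over all genes tested, from edgeR's quasi-likelihood F test. A gene is said to have risen where the adjusted p was under 0.05.

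In the hippocampus, 6 of the 10 genes rose in α-IgLON5#1 over pCtrl (Gfap, Serpina3n, Lcn2, Steap4, Timp1 and Aspg), whereas 4.23% of all genes tested did. Over PBS, 7 rose (Gfap, Vim, Lcn2, Steap4, Timp1, Cp and Aspg), against 3.81% of all genes. In the cortex, 7 rose over pCtrl (Gfap, Serpina3n, Lcn2, Steap4, Cd44, Cp and Aspg), against 3.01% of all genes, and 6 rose over PBS (Gfap, Serpina3n, Lcn2, Steap4, Cp and Aspg), against 2.97% of all genes. None of the 10 fell in any of these comparisons. Gfap, Lcn2, Steap4 and Aspg rose in all 4. The median log2 fold change of the 10 genes was 1.37 over pCtrl and 1.33 over PBS in the hippocampus, and 1.59 and 1.52 in the cortex, beside medians over all genes between -0.02 and 0.001. The comparisons with pCtrl and with PBS share the α-IgLON5#1 libraries, and those of the tissues share the animals, so the 4 counts are not independent.

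The number of genes that also passed a fold change above 2 was 6 over pCtrl and 6 over PBS in the hippocampus, where 2.21% and 2.56% of all genes passed. It was 7 and 6 in the cortex, where 2.14% and 2.24% passed. Every α-IgLON5#1 hippocampus lay above every pCtrl hippocampus for 6 genes (Gfap, Vim, Serpina3n, Steap4, Cp and Aspg), a pattern held by 6.68% of all genes, and above every PBS hippocampus for 4 (Gfap, Vim, Steap4 and Aspg), against 4.49%. Both conditions held together for the same 4, against 3.22% of all genes. In the cortex the count was 5 against pCtrl (Gfap, Serpina3n, Steap4, Cp and Aspg; 3.68% of all genes), 4 against PBS (Gfap, Serpina3n, Lcn2 and Steap4; 3.14%) and 3 against both (Gfap, Serpina3n and Steap4; 2.17%). Gfap and Steap4 thus separated α-IgLON5#1 from all control libraries in both tissues.

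A score of tissue composition, built from genes that separate PBS hippocampus from PBS cortex, lay between -1.69 and -0.02 in pCtrl hippocampi and between -0.11 and 0.89 in α-IgLON5#1. With that score as a covariate, 0 of the 10 genes rose over pCtrl in the hippocampus, where 201 of all genes rose by edgeR's test, Gfap was at 0.82 (adjusted p = 0.309), and 8 of the 10 rose over PBS, where 862 of the 20271 genes did. The α-IgLON5#1 mice all had numbers from 8 to 17, as had pCtrl mice 10, 11 and 15 and PBS mouse 14, while the other controls had numbers from 32 to 75. Among mice 8 to 17 alone, 0 of the 10 rose over pCtrl in either tissue, with Gfap at 1.22 (adjusted p = 0.234) in the hippocampus and 1.47 (adjusted p = 0.116) in the cortex. In that fit 55 of the 20271 genes rose in the hippocampus and 10 in the cortex, where 857 and 610 rose with all mice. What the numbers stand for is not given in the labels.

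**Figure D1:**
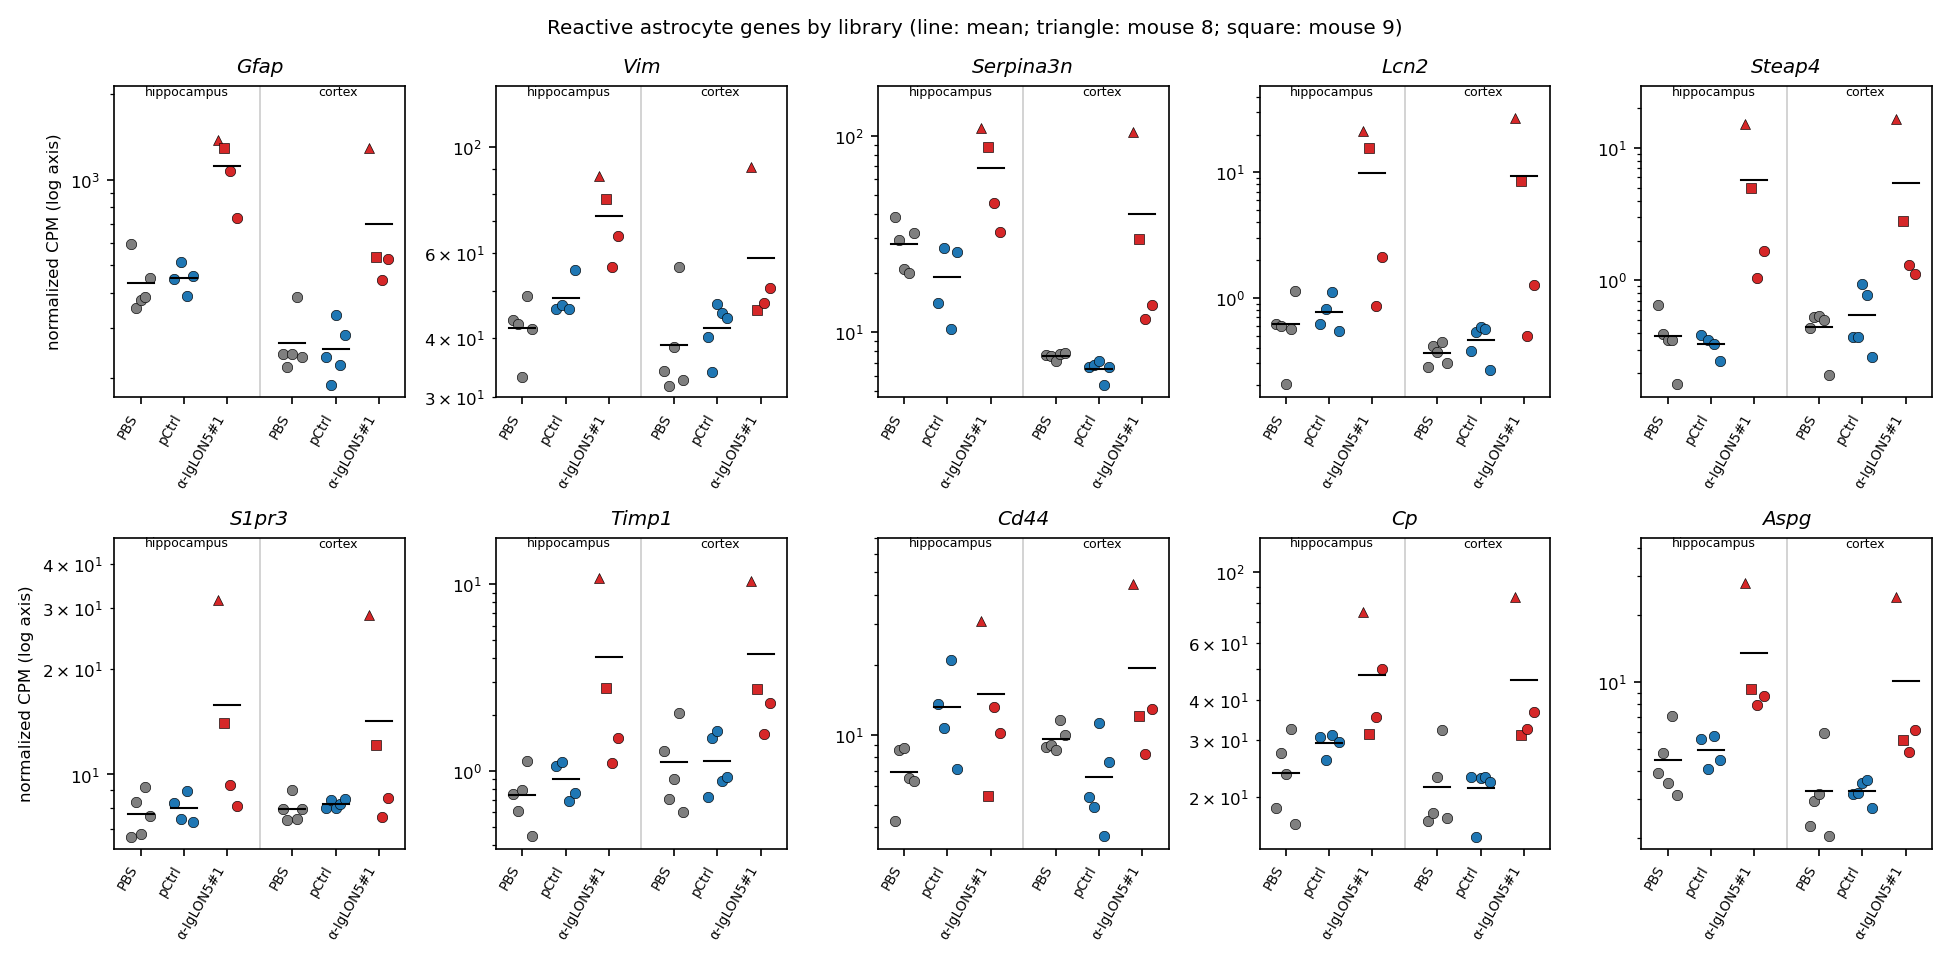
Normalized CPM (log axis) of each gene in every library, grouped by tissue and treatment; grey points are PBS, blue pCtrl and red α-IgLON5#1, the line is the group mean, and mouse 8 is a triangle and mouse 9 a square. Mouse 8 is the highest α-IgLON5#1 library in every panel and tissue, and all red Gfap points lie above all grey and blue points of their tissue.

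Gfap (ENSMUSG00000020932.14, chr11:102887336-102900912, minus strand, GRCm38) encodes glial fibrillary acidic protein, the intermediate filament that defines reactive astrocytes. In the hippocampus its level in the PBS mice 14, 32, 33, 38 and 74 was 594, 354, 378, 388 and 451 CPM, and in the pCtrl mice 10, 15, 37 and 75 it was 446, 514, 388 and 458 CPM. In the α-IgLON5#1 mice 8, 9, 16 and 17 it was 1380, 1296, 1073 and 732 CPM. The lowest α-IgLON5#1 hippocampus, mouse 17, was still above the highest control, PBS mouse 14. The log2 fold change was 1.31 over pCtrl (SE 0.27, adjusted p = 0.00262), a rise of 2.48-fold, and 1.37 over PBS (SE 0.25, adjusted p = 0.000526).

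In the cortex, Gfap was at 243, 219, 244, 386 and 237 CPM in the same PBS mice and at 237, 189, 333, 223 and 284 CPM in pCtrl mice 10, 11, 15, 37 and 75. The α-IgLON5#1 cortices reached 1290, 532, 441 and 524 CPM in mice 8, 9, 16 and 17. Mouse 8 stood far above the other 3, which lay close together and still above every control. Gfap rose by a log2 fold change of 1.46 over pCtrl (SE 0.25, adjusted p = 0.000477) and 1.39 over PBS (SE 0.25, adjusted p = 0.000706). Without α-IgLON5#1 mouse 8, the cortical values were 0.98 and 0.91, with adjusted p of 0.00535 and 0.00964, and Gfap stayed past the threshold whichever single library of a comparison was left out.

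Vim (ENSMUSG00000026728.9, chr2:13573927-13582826, plus strand) encodes vimentin, the partner filament of GFAP in reactive astrocytes. Its hippocampal level was 33.0 to 48.9 CPM in PBS, 46.0 to 55.3 CPM in pCtrl and 87.3, 78.1, 56.2 and 65.2 CPM in α-IgLON5#1 mice 8, 9, 16 and 17. No α-IgLON5#1 hippocampus overlapped a control, though mouse 16 was less than 1 CPM above pCtrl mouse 75. Vim rose over PBS by a log2 fold change of 0.77 (SE 0.18, adjusted p = 0.00861), while the value over pCtrl was 0.56 (SE 0.19, adjusted p = 0.072). Without α-IgLON5#1 mouse 8 the value over PBS was 0.66 (adjusted p = 0.0629), and without mouse 16 the value over pCtrl was 0.66 (adjusted p = 0.034). In the cortex the groups overlapped, with 45.6 to 91.1 CPM in α-IgLON5#1 and up to 56.3 CPM in PBS, and neither comparison passed (0.48 over pCtrl, adjusted p = 0.169, and 0.61 over PBS, adjusted p = 0.0716). The cortical value over PBS passed without PBS mouse 38 (0.78, adjusted p = 0.00622) or α-IgLON5#1 mouse 9 (0.71, adjusted p = 0.0341) or 16 (0.70, adjusted p = 0.0361). DESeq2 called Vim in the hippocampus over pCtrl (0.56, adjusted p = 0.0416) and in the cortex over PBS (0.61, adjusted p = 0.0275), and edgeR's test with no count filter called the latter (0.63, adjusted p = 0.0298). Without mouse 8 the cortical values were 0.19 over pCtrl (adjusted p = 0.712) and 0.31 over PBS (adjusted p = 0.76).

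Among the secreted proteins, Serpina3n (ENSMUSG00000021091.8, chr12:104406729-104414329, plus strand) encodes a serine protease inhibitor of the acute phase. In the hippocampus it was at 38.4, 29.5, 20.996, 20.1 and 31.8 CPM in PBS mice 14, 32, 33, 38 and 74, at 14.0, 26.9, 10.4 and 25.6 CPM in pCtrl mice 10, 15, 37 and 75, and at 110, 87.5, 45.4 and 32.3 CPM in α-IgLON5#1 mice 8, 9, 16 and 17. Every α-IgLON5#1 mouse exceeded every pCtrl mouse, but PBS mouse 14 exceeded α-IgLON5#1 mouse 17. Serpina3n rose over pCtrl (log2 fold change 1.83, SE 0.47, adjusted p = 0.0183) but not past the threshold over PBS (1.28, SE 0.43, adjusted p = 0.106). The call over pCtrl was lost without pCtrl mouse 10 or 37 or without α-IgLON5#1 mouse 8 or 9, where the log2 fold change was between 1.51 and 1.71 and the adjusted p between 0.0651 and 0.0913.

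Cortical Serpina3n varied little among the controls. It was at 7.61, 7.54, 7.16, 7.69 and 7.81 CPM in PBS and at 6.66, 6.76, 7.11, 5.41 and 6.65 CPM in pCtrl. The α-IgLON5#1 mice 8, 9, 16 and 17 were at 104, 29.8, 11.7 and 13.8 CPM, all above the controls but far apart from each other. The log2 fold change was 2.61 over pCtrl (SE 0.47, adjusted p = 0.000877) and 2.39 over PBS (SE 0.46, adjusted p = 0.00155). Without mouse 8 the log2 fold change was 1.48 (adjusted p = 0.0193) and 1.27 (adjusted p = 0.0544), so the call over PBS was lost without that library.

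Lcn2 (ENSMUSG00000026822.14, chr2:32384633-32388252, minus strand) encodes lipocalin 2, a secreted carrier of iron-binding siderophores. It was barely detected in the hippocampal controls, at 0.614, 0.591, 0.205, 0.564 and 1.13 CPM in PBS and 0.613, 0.809, 1.12 and 0.54 CPM in pCtrl, which corresponds to 7 to 48 counts a library. In α-IgLON5#1 mice 8 and 9 it reached 21.2 and 15.6 CPM, whereas mouse 16 was at 0.858 CPM, within the range of the controls, and mouse 17 at 2.12 CPM. The group therefore split, and its mean of 9.94 CPM had an SD of 10.0 (n = 4). The log2 fold change was 3.66 over pCtrl (SE 0.88, adjusted p = 0.0116) and 3.94 over PBS (SE 0.84, adjusted p = 0.0033).

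The cortical pattern of Lcn2 was alike, with 27.3, 8.59, 0.50 and 1.26 CPM in α-IgLON5#1 mice 8, 9, 16 and 17. PBS cortices were at 0.282, 0.414, 0.370, 0.441 and 0.302 CPM and pCtrl cortices at 0.375, 0.532, 0.589, 0.562 and 0.266 CPM, so mouse 16 overlapped pCtrl. Lcn2 rose by 4.32 over pCtrl (SE 0.88, adjusted p = 0.00325) and 4.68 over PBS (SE 0.90, adjusted p = 0.00155) on the log2 scale. Without the mouse 8 library of that tissue the calls over pCtrl were lost in both tissues (hippocampus 2.94, adjusted p = 0.0667; cortex 2.82, adjusted p = 0.0883) and those over PBS still passed, at 3.23 (adjusted p = 0.0318) and 3.18 (adjusted p = 0.0412). Without mice 8 and 9 the log2 fold change over pCtrl was 0.96 in the hippocampus and 0.94 in the cortex.

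Timp1 (ENSMUSG00000001131.11, chrX:20870166-20874735, plus strand) encodes an inhibitor of matrix metalloproteinases. The gene lies within Syn1 on the other strand, and the strand setting of the authors' counting is not given in the sources used here, so reads of the neuronal gene Syn1 cannot be fully set apart from its counts. Hippocampal Timp1 was at 0.447 to 1.13 CPM in PBS, at 0.69 to 1.11 CPM in pCtrl and at 10.8, 2.76, 1.10 and 1.49 CPM in α-IgLON5#1 mice 8, 9, 16 and 17. Mouse 8 was far above the other 3, and mouse 16 lay within the controls. The log2 fold change was 2.11 over pCtrl (SE 0.60, adjusted p = 0.0312) and 2.42 over PBS (SE 0.58, adjusted p = 0.00974). Without mouse 8 these values were 0.91 (adjusted p = 0.381) and 1.23 (adjusted p = 0.302). The call over pCtrl was also lost without pCtrl mouse 10, 37 or 75 or α-IgLON5#1 mouse 9 (log2 fold change 2.001 to 2.23, adjusted p 0.0516 to 0.114).

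In the cortex, Timp1 did not pass edgeR's test over pCtrl (1.90, SE 0.55, adjusted p = 0.0545) or PBS (1.93, SE 0.55, adjusted p = 0.0527). DESeq2 called it over both (1.92 and 1.94, adjusted p = 0.0274 and 0.0278), as did edgeR's test with no count filter (1.93 and 1.96, adjusted p = 0.0294 and 0.0231). It passed over PBS without PBS mouse 38 (2.27, adjusted p = 0.0291), the cortex with the highest control value, at 2.05 CPM, and also without α-IgLON5#1 mouse 9 (2.08, adjusted p = 0.0475). Leaving out α-IgLON5#1 mouse 16 or 17 brought the values over pCtrl to 2.18 and 2.12 (adjusted p = 0.0192 and 0.0403) and over PBS to 2.21 and 2.14 (adjusted p = 0.018 and 0.0341). Without mouse 8 the values were lowest, at 0.96 over pCtrl (adjusted p = 0.494) and 0.98 over PBS (adjusted p = 0.798).

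Iron and copper handling was represented by Steap4 and Cp. Steap4 (ENSMUSG00000012428.9, chr5:7960457-7982213, plus strand) encodes a membrane metalloreductase. In the hippocampus it was at 0.648, 0.394, 0.352, 0.356 and 0.165 CPM in PBS, at 0.388, 0.357, 0.333 and 0.246 CPM in pCtrl and at 15.2, 5.01, 1.04 and 1.66 CPM in α-IgLON5#1 mice 8, 9, 16 and 17. The lowest α-IgLON5#1 library was above the highest control library in this tissue. In this tissue the rise over pCtrl was the largest of the 10 genes, with a log2 fold change of 4.05 (SE 0.81, adjusted p = 0.00235), and it was 3.89 over PBS (SE 0.75, adjusted p = 0.00114). Without mouse 8 these values were 2.87 (adjusted p = 0.0315) and 2.70 (adjusted p = 0.0315).

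In the cortex, Steap4 was at 0.438, 0.532, 0.538, 0.504 and 0.192 CPM in PBS and at 0.375, 0.373, 0.942, 0.772 and 0.266 CPM in pCtrl. The α-IgLON5#1 cortices were at 16.6, 2.81, 1.31 and 1.11 CPM, with the lowest of them close to pCtrl mouse 15. The gene rose by 3.26 over pCtrl (SE 0.72, adjusted p = 0.0075) and 3.63 over PBS (SE 0.74, adjusted p = 0.00288). Both calls were lost without the cortex of mouse 8, where the values were 1.58 (adjusted p = 0.276) and 1.95 (adjusted p = 0.166).

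Cp (ENSMUSG00000003617.16, chr3:19957054-20009145, plus strand) encodes ceruloplasmin, a copper-carrying ferroxidase that astrocytes hold at their surface. It overlaps Hps3 on the other strand, with the same limit as for Timp1. Hippocampal Cp was at 16.4 to 32.6 CPM in PBS, at 26.02 to 31.2 CPM in pCtrl and at 74.9, 31.3, 35.3 and 49.8 CPM in α-IgLON5#1 mice 8, 9, 16 and 17, where mouse 9 lay within the PBS range and just above pCtrl. Cp rose over PBS (log2 fold change 1.01, SE 0.27, adjusted p = 0.0266) but not past the threshold over pCtrl (0.70, SE 0.29, adjusted p = 0.14). The call over PBS was lost without α-IgLON5#1 mouse 8 (0.72, adjusted p = 0.222) or 17 (0.99, adjusted p = 0.0604) and without PBS mouse 14, 33 or 74 (0.91 to 1.01, adjusted p 0.0605 to 0.0885).

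Cortical Cp was at 83.9, 31.1, 32.5 and 36.7 CPM in α-IgLON5#1 mice 8, 9, 16 and 17. The pCtrl cortices spanned 15.0 to 23.03 CPM and the PBS cortices 16.8 to 32.2 CPM, the latter because of PBS mouse 38. The log2 fold change was 1.11 over both pCtrl (SE 0.27, adjusted p = 0.0167) and PBS (SE 0.27, adjusted p = 0.0162). Without mouse 8 it was 0.65 over both (adjusted p = 0.243 and 0.35). The call over pCtrl was also lost without pCtrl mouse 11 (1.01, adjusted p = 0.0564), and that over PBS without PBS mouse 14, 32 or 74 (1.04 to 1.05, adjusted p 0.0566 to 0.0599).

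The receptors were S1pr3 and Cd44. S1pr3 (ENSMUSG00000067586.4, chr13:51408639-51422797, plus strand) encodes a G protein-coupled receptor for sphingosine-1-phosphate. Only mice 8 and 9 stood clearly above the controls. Hippocampal levels were 31.5, 14.1, 9.32 and 8.11 CPM in α-IgLON5#1 mice 8, 9, 16 and 17, beside 6.62 to 9.23 CPM in PBS and 7.29 to 8.97 CPM in pCtrl. Mice 8 and 9 were also highest in the cortex, with 28.6, 12.1, 7.55 and 8.59 CPM beside 7.39 to 9.01 and 8.01 to 8.48 CPM. S1pr3 passed edgeR's test in none of the 4 comparisons (log2 fold changes of 0.78 to 1.02, adjusted p between 0.0672 and 0.25), while DESeq2 called it in the hippocampus over PBS (1.02, adjusted p = 0.0473). In the hippocampus it passed without α-IgLON5#1 mouse 16 (1.15 over pCtrl, adjusted p = 0.031; 1.204 over PBS, adjusted p = 0.0236) or mouse 17 (1.19, adjusted p = 0.0286; 1.24, adjusted p = 0.0183). Without mouse 8 the values over pCtrl and PBS were 0.38 and 0.43 in the hippocampus (adjusted p = 0.53 and 0.598) and 0.19 and 0.24 in the cortex (adjusted p = 0.847 and 0.988).

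Cd44 (ENSMUSG00000005087.17, chr2:102811141-102901665, minus strand) encodes the receptor for hyaluronan. In the hippocampus, pCtrl mice 10, 15, 37 and 75 were at 13.6, 10.7, 21.03 and 7.15 CPM, and all but mouse 75 were above the PBS mice, which spanned 4.23 to 8.77 CPM. The α-IgLON5#1 mice 8, 9, 16 and 17 were at 31.0, 5.46, 13.1 and 10.1 CPM, a range that contained all of pCtrl, and Cd44 did not pass over pCtrl (log2 fold change 0.18, SE 0.46, adjusted p = 0.861) or PBS (1.11, SE 0.44, adjusted p = 0.192). Without mouse 8 the values were -0.43 over pCtrl and 0.49 over PBS (adjusted p = 0.758), and without pCtrl mouse 75 the value over pCtrl was -0.02.

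In the cortex, Cd44 was at 5.41, 4.90, 11.3, 3.65 and 7.65 CPM in pCtrl mice 10, 11, 15, 37 and 75 and at 8.83, 9.02, 8.60, 11.5 and 9.95 CPM in PBS. All pCtrl cortices but that of mouse 15 were below the PBS range. The α-IgLON5#1 cortices were at 44.5, 12.1, 8.26 and 12.8 CPM. Cd44 rose over pCtrl (log2 fold change 1.54, SE 0.44, adjusted p = 0.0481) and did not pass over PBS (1.02, SE 0.43, adjusted p = 0.391). Without α-IgLON5#1 mouse 8 the value over PBS was 0.21 (adjusted p = 0.991), and the call over pCtrl was lost (0.73, adjusted p = 0.49). That call was also lost without pCtrl mouse 10, 11, 37 or 75 (1.398 to 1.59, adjusted p 0.0698 to 0.135), and among the genes with at least 10 counts in every library (1.56, adjusted p = 0.0577).

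Aspg (ENSMUSG00000037686.6, chr12:112106679-112127559, plus strand) encodes an asparaginase. Its hippocampal level was 3.13 to 7.03 CPM in PBS, 4.08 to 5.71 CPM in pCtrl and 28.1, 9.29, 7.91 and 8.68 CPM in α-IgLON5#1 mice 8, 9, 16 and 17, with no overlap. In the cortex it was 2.03 to 5.90 CPM in PBS, 2.73 to 3.65 CPM in pCtrl and 24.2, 5.48, 4.86 and 6.08 CPM in α-IgLON5#1, which overlapped PBS through PBS mouse 38. Mice 9, 16 and 17 were close to each other in both tissues. Aspg rose over pCtrl and PBS by 1.43 (SE 0.44, adjusted p = 0.0459) and 1.58 (SE 0.41, adjusted p = 0.0227) in the hippocampus and by 1.64 (SE 0.42, adjusted p = 0.025) and 1.64 (SE 0.42, adjusted p = 0.023) in the cortex.

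None of the 4 Aspg calls held under all single omissions. Without mouse 8 the log2 fold changes were 0.80 and 0.94 in the hippocampus (adjusted p = 0.319 and 0.294) and 0.75 over both controls in the cortex (adjusted p = 0.407 and 0.671). In the hippocampus the call over pCtrl was also lost without any single pCtrl mouse or α-IgLON5#1 mouse 9 (1.35 to 1.56, adjusted p 0.0664 to 0.109), and the call over PBS without PBS mouse 33 or 74 (1.51 and 1.47, adjusted p = 0.0678 and 0.0724). In the cortex the same held without pCtrl mouse 10, 11 or 75 (1.58 to 1.63, adjusted p 0.055 to 0.0646) and without PBS mouse 14, 32, 33 or 74 (1.51 to 1.63, adjusted p 0.0581 to 0.0864).

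**Figure D2:**
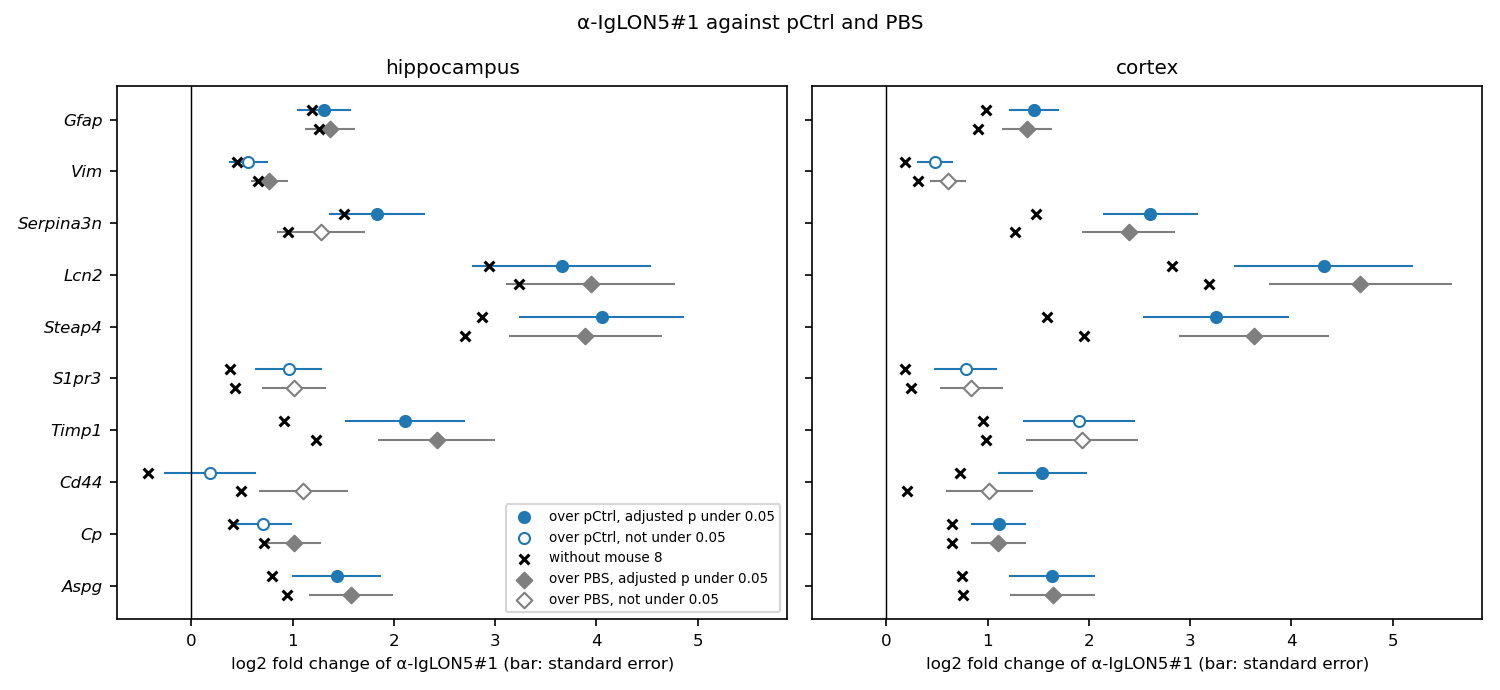
Log2 fold change of α-IgLON5#1 over pCtrl (blue circles) and over PBS (grey diamonds) for each gene in the hippocampus (left) and cortex (right), with bars for the standard error, filled symbols for an adjusted p under 0.05 and a cross for the value without mouse 8. In the hippocampus the crosses of Gfap, Vim, Serpina3n and Lcn2 stay within the error bars and those of the other 6 genes fall outside, and in the cortex those of all 10 genes fall outside.

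Mouse 8 had the highest level of all 10 genes among the 4 α-IgLON5#1 mice, in the hippocampus and again in the cortex. Its ratio to the mouse that came second ranged from 1.06 to 3.92 over the 10 genes in the hippocampus, with a median of 1.87, and from 1.79 to 5.91 in the cortex, with a median of 3.32. Mouse 9 came second for 8 genes in the hippocampus and 6 in the cortex. Without the mouse 8 library of the tissue compared, 2 genes rose over pCtrl and 3 over PBS in the hippocampus, and 2 over each control in the cortex. Of all 20271 genes, 519 and 553 rose there in the hippocampus and 311 and 356 in the cortex, where 857, 773, 610 and 603 rose with all libraries. With mouse 8 left out of both tissues, so that it no longer entered the common estimate of the spread, 4 rose over pCtrl (Gfap, Serpina3n, Lcn2 and Steap4) and 5 over PBS (Gfap, Vim, Lcn2, Steap4 and Aspg) in the hippocampus. In the cortex 2 rose over pCtrl (Gfap and Serpina3n) and 4 over PBS (Gfap, Serpina3n, Lcn2 and Steap4). The counts over all genes were then 594, 679, 371 and 435 in the same order. Without mice 8 and 9 it was 3 and 3 in the hippocampus (Gfap, Serpina3n and Steap4 over pCtrl, and Gfap, Steap4 and Cp over PBS) and 1 and 1 in the cortex, where the remaining gene was Gfap, with 405, 545, 239 and 286 of all genes. The omissions of whole mice were chosen after the values had been seen.

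**Figure D3:**
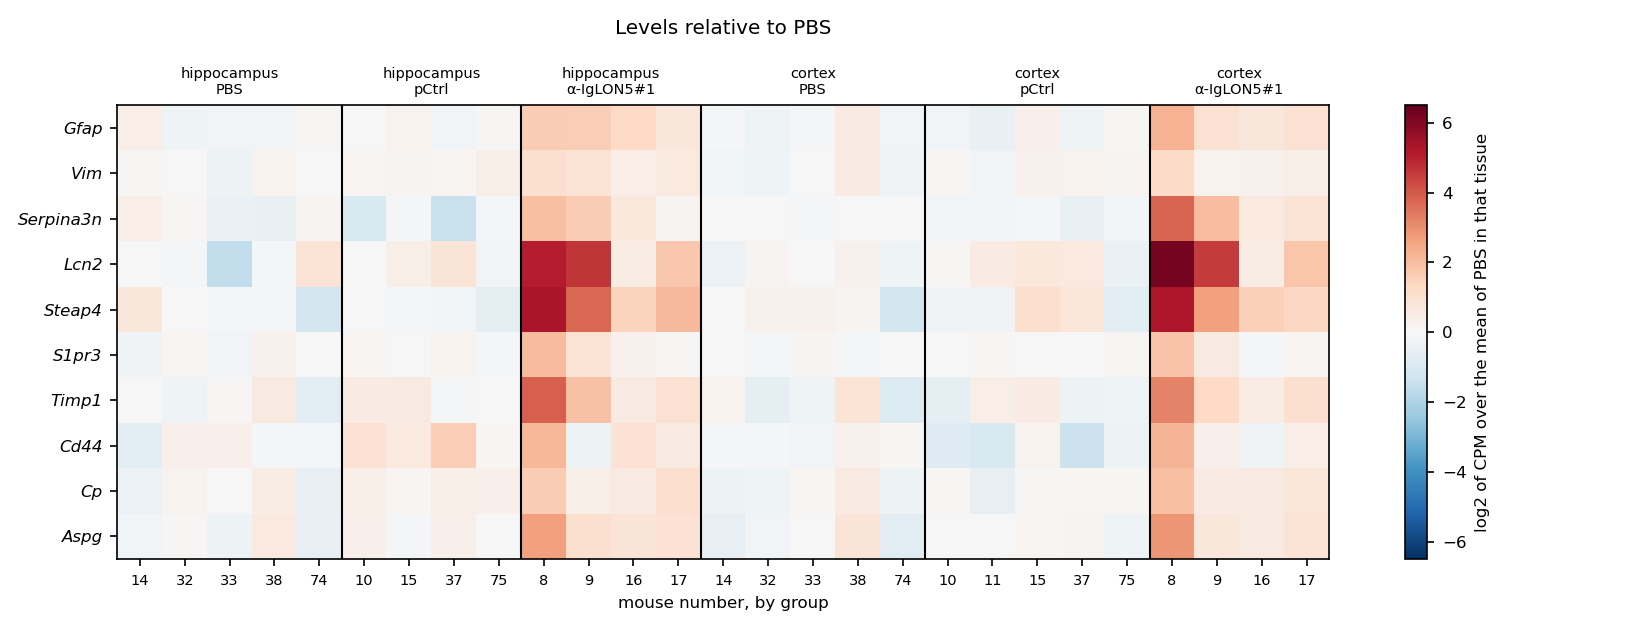
Log2 ratio of each library's CPM to the mean CPM of PBS in the same tissue, for the 10 genes (rows) and 27 libraries (columns, by mouse number within group); red is above PBS and blue below. Mouse 8 is the darkest α-IgLON5#1 column in both tissues, and PBS mouse 38 is slightly red for Gfap, Vim, Timp1, Cp and Aspg in the cortex.

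Among the controls, PBS mouse 38 had the highest level of its group for 7 of the 10 genes in the cortex (Gfap, Vim, Lcn2, Timp1, Cd44, Cp and Aspg) and for 5 in the hippocampus (Vim, S1pr3, Timp1, Cp and Aspg). The same mouse had the highest summed level of 7 fibroblast markers in PBS, 351 CPM in the cortex beside 160 to 221 in the other 4 mice, and 359 CPM in the hippocampus beside 166 to 295. In pCtrl, mouse 15 was highest for 7 genes in the cortex and had the highest fibroblast sum there (256 CPM beside 179 to 241), while in the hippocampus mouse 37 was highest for 5 genes with a fibroblast sum of 292 CPM, beside 279 to 328 in the other 3. The part of these cells in the levels was not tested. In the α-IgLON5#1 group mice 8 and 17 were highest in the fibroblast markers (385 and 344 CPM in the hippocampus, 307 and 304 in the cortex) and mouse 9 lowest (122 and 138 CPM).

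Levels were compared between genes per kilobase of exon. In PBS hippocampus Gfap was highest at 103 ± 22.97 CPM per kb (mean ± SD, n = 5), followed by Serpina3n (13.6 ± 3.72), Vim (8.85 ± 1.21), Cp (2.47 ± 0.686), S1pr3 (1.73 ± 0.248), Aspg (1.27 ± 0.442), Cd44 (1.02 ± 0.276), Timp1 (0.839 ± 0.285), Lcn2 (0.237 ± 0.126) and Steap4 (0.121 ± 0.055). Within 1 SD, Serpina3n overlapped Vim, each neighbour from Cp to Timp1 overlapped the next, and Lcn2 overlapped Steap4, while the step from Gfap to the rest was the largest. The 2 genes lowest in the controls, Lcn2 and Steap4, had the largest fold changes, and even in α-IgLON5#1 hippocampus they stayed at 3.79 ± 3.82 and 1.81 ± 2.07 CPM per kb (n = 4), beside 266 ± 68.6 for Gfap.

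The tissues themselves differed in their base levels. Gfap and Serpina3n were higher in PBS hippocampus than in PBS cortex, by a log2 difference of 0.70 (SE 0.23, adjusted p = 0.0263) and 1.90 (SE 0.44, adjusted p = 0.00174), where 12.7% of all genes were higher in the hippocampus. The Gfap call was lost without hippocampus of PBS mouse 14 (0.56, adjusted p = 0.0959) or without cortex of PBS mouse 14, 32, 33 or 74 (0.64 to 0.67, adjusted p 0.0585 to 0.069), while Serpina3n kept its call under every single omission. With the animal as a replicate block, since the tissues were paired within mice, Gfap (0.71, adjusted p = 0.00341) and Serpina3n (1.86, adjusted p = 8.44e-06) were called again. In that fit Aspg was also higher in the hippocampus (0.50, adjusted p = 0.0051) and Timp1 lower (-0.52, adjusted p = 0.0489).

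Whether the effect of α-IgLON5#1 differed between tissues was tested as an interaction. Of the 10 genes, 0 passed for α-IgLON5#1 over pCtrl, where 0% of all genes did, and 0 for α-IgLON5#1 over PBS, where 0.00493% did. DESeq2 also called 0 of the 10 in both, where of all genes it called 18 higher and 18 lower over pCtrl and 1 higher over PBS. The paired fit with the replicate block called 0 of the 10 as well, and 2 of all genes in each. At an unadjusted p under 0.05, edgeR's test gave 1 of the 10 (Cd44) over pCtrl and 0 over PBS, beside 2158 and 672 of all 20271 genes. For Cd44 the hippocampal less the cortical log2 fold change over pCtrl was -1.36 (SE 0.63, unadjusted p = 0.0413, adjusted p = 0.448). Serpina3n differed by -1.11 over PBS (SE 0.63, adjusted p = 1), a value that went to 0.01 without the cortex of mouse 8. Most interaction values changed sign without a single library of mouse 8. Over pCtrl, Serpina3n went from -0.77 to 0.35, Lcn2 from -0.66 to 0.84 and Aspg from -0.20 to 0.68 without its cortex, and Steap4 went from 0.80 to -0.39 and Timp1 from 0.21 to -0.99 without its hippocampus. With SEs between 0.26 and 1.25 over the 10 genes, the design could not show small differences between the tissues.

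pCtrl was compared with PBS by edgeR's quasi-likelihood test. In the hippocampus 0 of the 10 were called, beside 0.192% of all genes, and log2 fold changes ran from -0.55 (Serpina3n) to 0.92 (Cd44). In the cortex 0 were called, beside 0% of all genes, and the values ran from -0.52 (Cd44) to 0.37 (Steap4). At an unadjusted p under 0.05 the test gave 1 of the 10 in the hippocampus (Cd44, adjusted p = 0.336), beside 2828 of all 20271 genes, and 0 in the cortex. DESeq2 called 0 of the 10 in either tissue. Over all genes the hippocampal count depended on the tool and on single libraries: edgeR's test called 27 higher and 12 lower and DESeq2 287 and 251, while edgeR's test called 359 and 402 without pCtrl mouse 15, 187 and 97 without mouse 75, and 0 without mouse 10 or 37. In the cortex the test found 1650 of all genes at an unadjusted p under 0.05, and DESeq2 called 5 higher and 6 lower.

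Genes of resting astrocytes were counted in the same way. Of 12 homeostatic astrocyte genes, among them the water channel Aqp4, the glutamate transporters Slc1a2 and Slc1a3, the gap junction protein Gja1 and glutamine synthetase (Glul), 0 were called by edgeR or DESeq2 in any of the 4 comparisons of α-IgLON5#1 with a control. At an unadjusted p under 0.05 edgeR's test gave 0 in the hippocampus over pCtrl and 1 (Aqp4) in each of the other 3. Of all 20271 genes, 4431 and 3103 were under it over pCtrl and PBS in the hippocampus, and 3116 and 1877 in the cortex. The median log2 fold change of the 12 genes over pCtrl was -0.07 in the hippocampus (range -0.31 to 0.27) and -0.09 in the cortex (range -0.19 to 0.41). The summed level of the 12 was 6611 to 8063 CPM in α-IgLON5#1 hippocampi, 7484 to 7940 in pCtrl and 7027 to 8667 in PBS, and the groups overlapped. Aldh1l1, an enzyme used as a marker of all astrocytes, was at 53.3 ± 9.58 CPM (SD, n = 4) in α-IgLON5#1 hippocampi and 55.4 ± 5.15 in pCtrl. In mouse 8 it was at 66.7 CPM in the hippocampus and 74.2 in the cortex, beside at most 59.4 and 70.4 in the controls. Sox9 and Aqp4 were likewise above every control in mouse 8 in both tissues. No other gene of the 12 had an α-IgLON5#1 hippocampus above every control. The sum of the 12 in mouse 8 was 7579 and 7232 CPM, within the control range of each tissue.

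Other reactive genes were counted from lists named after the inflammatory (A1-type) and ischaemic (A2-type) astrocyte states described in mice. Of 3 further pan-reactive genes, 2 rose over pCtrl in the hippocampus, the chemokine Cxcl10 (log2 fold change 4.91, adjusted p = 0.0137) and the oncostatin M receptor Osmr (1.51, adjusted p = 0.0238), and the same 2 rose in the other 3 comparisons. Cxcl10 was at 86.5 CPM in the hippocampus of mouse 8, at 1.29 to 4.45 CPM in the other 3 α-IgLON5#1 mice and at most 1.49 CPM in pCtrl. With mouse 8 left out of both tissues the hippocampal call of Cxcl10 was lost (1.60, adjusted p = 0.244), and Osmr was at 0.94 (adjusted p = 0.00432). Of 11 A1-type genes, 4 rose over pCtrl in the hippocampus, which were Psmb8 (1.80, adjusted p = 0.00142), H2-D1 (1.24, adjusted p = 1.68e-06), Ggta1 (0.98, adjusted p = 0.00927) and H2-T23 (0.59, adjusted p = 0.00344). Psmb8, H2-D1 and H2-T23 serve antigen presentation on MHC class I in most cell types, and Ggta1 makes the alpha-gal sugar. The count was 5 over PBS, and 6 over each control in the cortex. The same 4 rose over pCtrl in the hippocampus without mouse 8, and the counts were then 4 over PBS in the hippocampus and 5 and 6 in the cortex.

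Of 12 A2-type genes 11 were tested. Over PBS 2 rose in the hippocampus and 3 in the cortex, and over pCtrl the same 3 rose in the hippocampus and in the cortex. They were the pentraxin Ptx3 (hippocampus 3.69, adjusted p = 0.0491), the transglutaminase Tgm1 (2.68, adjusted p = 0.0271) and Cd14 (2.67, adjusted p = 0.000295), the co-receptor for bacterial lipopolysaccharide that microglia also carry. Ptx3 was at 23.4 CPM in the hippocampus of mouse 8, beside 0.774 to 1.23 CPM in the other 3 α-IgLON5#1 mice. The hippocampal controls had at most 0.564 in pCtrl and 1.09 in PBS, over which Ptx3 was not called in that tissue. In the cortex of mouse 8 Ptx3 was at 35.1 CPM, beside 0.262 to 0.902 in the other 3. With mouse 8 left out Ptx3 was called in neither tissue (hippocampus 1.02, adjusted p = 0.114; cortex 0.72, adjusted p = 0.467), while Tgm1 (hippocampus 1.94, adjusted p = 0.00787) and Cd14 (2.35, adjusted p = 2.15e-05) still rose in both tissues. The median of the list in the hippocampus was 0.31, beside 0.67 for the A1-type list. Of 8 genes of STAT3 and gp130 signalling, 1 rose over pCtrl in each tissue, the NF-kB cofactor Bcl3 (hippocampus 2.70, adjusted p = 0.0261; cortex 3.61, adjusted p = 0.00365). Bcl3 was at 10.3 CPM in the hippocampus and 12.3 CPM in the cortex of mouse 8, where the other 3 α-IgLON5#1 mice had 1.01 to 1.53 and 0.738 to 1.70 CPM and the highest pCtrl library 0.602 and 0.469. The Bcl3 differences without mouse 8 were 1.23 (adjusted p = 0.0377) and 1.89 (adjusted p = 0.00144), and Stat3 was called over pCtrl in the hippocampus as well (0.32, adjusted p = 0.0261). Over PBS in the hippocampus, Stat3 (0.68, adjusted p = 0.0439) and its feedback inhibitor Socs3 (1.90, adjusted p = 0.0274) rose as well, with 0.37 (adjusted p = 0.00348) and 0.70 (adjusted p = 0.0236) without mouse 8.

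**Figure D4:**
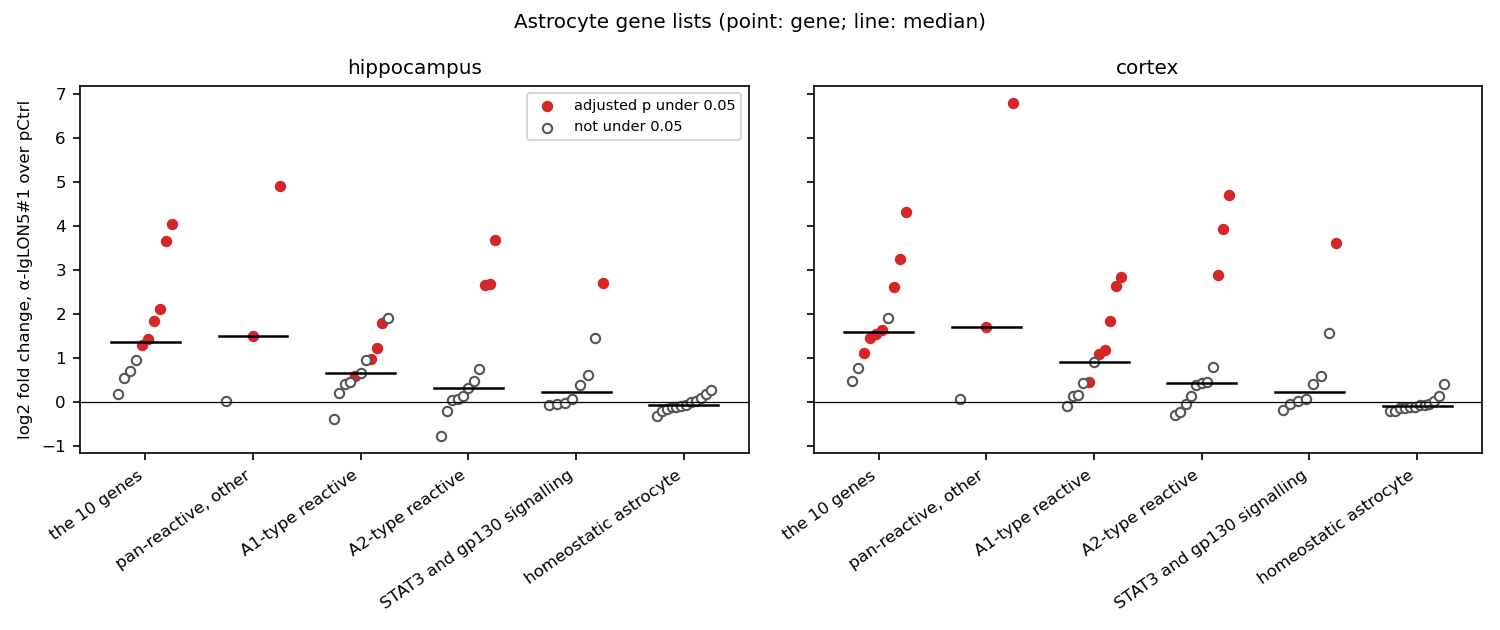
Log2 fold change of α-IgLON5#1 over pCtrl for each gene of 6 lists in the hippocampus (left) and cortex (right); red points have an adjusted p under 0.05, open points do not, and the line is the median of the list. The median of the 10 reactive genes is 1.37 and 1.59, while the homeostatic astrocyte genes lie around 0 with no red point.

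Markers of other cells were counted beside the 10 genes. Of 8 microglial markers, 5 rose over pCtrl in the hippocampus (6 without mouse 8), and their summed level was 403 to 717 CPM in α-IgLON5#1, 326 to 368 in pCtrl and 293 to 357 in PBS. In the cortex 1 rose (Aif1), with sums of 386 to 432, 323 to 395 and 322 to 350 CPM. Mouse 8, highest for all 10 reactive genes, had the lowest microglial sum of the 4 α-IgLON5#1 mice in both tissues (403 and 386 CPM). Of 8 neutrophil markers 6 were tested and 1 rose, Csf3r, which microglia share and which alone made up 16.4 to 27.9 CPM in α-IgLON5#1 hippocampi. The neutrophil sum was 19.2 to 30.5 CPM in α-IgLON5#1 hippocampi, 8.57 to 13.6 in pCtrl and 7.74 to 10.1 in PBS. In the cortex the neutrophil sums were 16.5 to 37.0, 6.68 to 13.6 and 7.20 to 10.5 CPM, and mouse 8 had the highest sum of its group in both tissues (30.5 and 37.0 CPM). The granule genes S100a8 and S100a9 were high in mouse 8 and not in the other 3 α-IgLON5#1 mice. S100a9 was at 3.99 CPM in the hippocampus of mouse 8, beside 0.225 to 1.12 CPM in the other 3 and 0.565 to 1.97 in pCtrl, and at 7.42 CPM in its cortex, beside 0.238 to 0.789 and 0.366 to 1.597 CPM. S100a8 was at 2.41 CPM in the hippocampus of mouse 8, beside 0.113 to 0.774 CPM in the other 3 and 0.442 to 1.21 in pCtrl, and at 3.97 CPM in its cortex, beside 0.119 to 0.448 and 0.366 to 1.01 CPM. Mean levels of 5 further granule genes in the hippocampus were 0.387 CPM in α-IgLON5#1 beside 0.624 in pCtrl for Ngp, 0.137 beside 0.241 for Camp, 0.260 beside 0.501 for Ltf, and, too low to be tested, 0.067 beside 0.130 for Mmp8 and 0.092 beside 0.085 for Retnlg. In the cortex they were 0.382 beside 0.63 for Ngp, 0.161 beside 0.139 for Camp, 0.272 beside 0.464 for Ltf, 0.160 beside 0.097 for Mmp8 and 0.161 beside 0.090 for Retnlg. The cortex of mouse 8 had 0.489 CPM of Mmp8 and 0.435 of Retnlg, beside at most 0.090 and 0.119 in the other 3 and 0.213 and 0.176 in pCtrl. Its Ngp, Camp and Ltf were not above the highest pCtrl cortex. The median log2 fold change of the 6 tested neutrophil markers over pCtrl was -0.33 in the hippocampus and 0.60 in the cortex, and -0.82 and -1.02 without mouse 8.

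Of 6 T cell markers 2 were tested, and 1 rose over pCtrl in each tissue (Cd4 in the hippocampus and Cd3g in the cortex), with sums of 1.35 to 4.68 CPM in α-IgLON5#1 hippocampi, 0.638 to 1.47 in pCtrl and 0.307 to 0.673 in PBS. In the cortex the T cell sums were 1.88 to 4.40 CPM in α-IgLON5#1, 0.798 to 1.33 in pCtrl and 0.605 to 1.22 in PBS, with no overlap between α-IgLON5#1 and either control. Mouse 8 had the highest T cell sum of its group in both tissues (4.68 and 4.40 CPM), and without it these calls of Cd4 (1.43, adjusted p = 0.0526) and Cd3g (3.07, adjusted p = 0.0501) over pCtrl were lost. Over PBS, Cd4 and Cd3g rose in the hippocampus with and without mouse 8, while Cd3g rose in the cortex only with it. No marker rose among 7 of fibroblasts, 6 of endothelium, 5 of oligodendrocytes, 6 of neurons, and the tested 5 of 6 of choroid plexus and 4 of 6 of ependyma, in either tissue over pCtrl, although the neuronal gene Tubb3 was lower in the hippocampus (-0.34, adjusted p = 0.0269; -0.32, adjusted p = 0.0907, without mouse 8). The sums of these last 6 lists overlapped between α-IgLON5#1 and pCtrl, save for neurons in the hippocampus (4827 to 5147 CPM beside 5150 to 6101), and the ependymal marker Tmem212 was at 0 in all hippocampi of both groups. The part of any of these cells in the levels of the 10 genes was not tested.

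The genes most like Gfap across libraries were sought by the smaller of 2 Pearson correlations of log2 CPM with Gfap, over 13 hippocampi and over 14 cortices. They were Arpc1b (r = 0.946 and 0.952), an actin-nucleating Arp2/3 subunit, the complement gene C4b (0.979 and 0.942), Msn (0.953 and 0.937), which encodes moesin, Ptprc (0.940 and 0.937), the leukocyte antigen CD45, and the tyrosine kinase gene Fes (0.948 and 0.934). Spearman's rho was lower than r for each of them in both tissues. It was 0.791 and 0.921 for Arpc1b, 0.940 and 0.873 for C4b, 0.857 and 0.749 for Msn, 0.742 and 0.736 for Ptprc, and 0.835 and 0.886 for Fes. The points share libraries and treatment groups, so these values describe the data only. C4b, for example, was at 161 ± 41.1 CPM in α-IgLON5#1 hippocampi (SD, n = 4) and at 60.1 ± 11.9 in pCtrl. Of the other 9 reactive genes, Steap4 ranked highest, in place 56 (0.896 and 0.898), and Cd44 lowest, in place 2546 (0.238 and 0.868).

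The sequence around the start sites was searched for binding motifs of factors known from astrocyte reactivity. The windows held 250 bases before to 50 after each RefSeq start site on GRCm38.p6, with 11 windows for the 10 genes and 32851 in all, and both strands were read. The letters searched were TTCNNNGAA for STAT factors, TTGCNNAA for C/EBP and TGANTCA for AP-1. For NF-kB they were a run of G, free bases, a run of T and then a run of C. That pattern differs from the kB consensus, so the NF-kB share and matches given here hold for that pattern alone. The letters matched are in capitals in the sequences printed. The STAT letters occurred in 8.30% of all windows and in those of Gfap and Steap4, the C/EBP letters in 10.8% and in those of Lcn2, Steap4 and Cp, the AP-1 letters in 7.81% and in that of Cp, and the NF-kB letters in 1.63% and in those of Vim, Serpina3n and Steap4. A match is a description of these letters and no site, and S1pr3, Timp1, Cd44 and Aspg had none in their windows. Matches are shown for Gfap, Lcn2 and Serpina3n, which were picked with their levels known, and those of Vim and Cp are not printed. The Gfap match begins at position -2 and so runs past the start site. Matches are written on the strand of the gene with the matched letters in capitals, a reverse match being written as it reads on that strand.
Gfap, STAT letters, chr11:102897184-102897212, minus strand: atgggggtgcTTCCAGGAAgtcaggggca
Lcn2, C/EBP letters, chr2:32387938-32387965, minus strand: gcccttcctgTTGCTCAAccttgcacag
Serpina3n, NF-kB letters, chr12:104406527-104406556, plus strand: aacagaggtgGGGCTTTTCCcatcaggaag

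Steap4 was the only one of the 10 whose window held 3 of the 4 motifs. The share of all windows holding 3 of them was not counted, and a link between the letters and the levels was not tested. The 250 bases before the Steap4 start site hold the NF-kB letters in reverse, then the STAT letters, then the C/EBP letters.
Steap4, chr5:7960222-7960471, plus strand: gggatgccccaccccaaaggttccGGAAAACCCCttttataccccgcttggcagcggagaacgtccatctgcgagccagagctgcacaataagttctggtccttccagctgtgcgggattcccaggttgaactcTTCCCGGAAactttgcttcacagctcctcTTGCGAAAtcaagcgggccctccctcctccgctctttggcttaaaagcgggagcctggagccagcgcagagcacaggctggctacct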

How the data were processed

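The deposited file is a matrix of raw read counts for 55487 genes in 27 libraries, not normalized by the authors. Paired-end reads of stranded mRNA libraries were aligned by the authors to GRCm38 with STAR (1.4.0 in the submitters' processing notes), and the counting program and its strand setting are not given in the sources used here. GENCODE M21 gave symbols for 55227 identifiers.

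1 edgeR (4.0.16, R 4.3.3) quasi-likelihood fit with TMM covered all libraries in 6 groups of tissue by treatment and the 20271 genes reaching 10 counts in 4 or more libraries, with Benjamini-Hochberg adjustment at 0.05, after tests on simulated data. Alternatives were DESeq2 1.42.0, other size factors and filters, only the groups compared, a composition score, mice 8 to 17, omitted libraries, and the mouse as a replicate block. Both tissues came from the same mice, whose deviations from group means correlated with a median r of 0.194 (-0.05 to 0.443, 13 mice).

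Members and lists were chosen with earlier results of these data known. Named genes are the members, up to 4 genes per list with the largest change called in the hippocampus over pCtrl, and the 5 most like Gfap. Other genes were named after their values were seen.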

Additional observations from a re-analysis of the deposited data

Results flagged for a closer look

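Dixon's test for a sample far from the rest of its group was run on the CPM of the 10 genes in 60 groups of 4 or 5 libraries, and chance alone flags about 1 in 20 such groups. It singled out 15 values, of which 9 belonged to α-IgLON5#1 mouse 8. In the cortex of mouse 8 these were Gfap at 1290 CPM, Vim at 91.1, Steap4 at 16.6, Timp1 at 10.4, Cd44 at 44.5, Cp at 83.9 and Aspg at 24.2 CPM. In its hippocampus they were Timp1 at 10.8 CPM and Aspg at 28.1 CPM. All 9 lay above the rest of the group.

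Among the controls, the cortex of PBS mouse 38 was high for Gfap (386 CPM) and Vim (56.3 CPM), and the hippocampus of pCtrl mouse 75 was high for Vim (55.3 CPM). Low values were Serpina3n in the cortex of pCtrl mouse 37 (5.41 CPM), Steap4 in the cortex of PBS mouse 74 (0.192 CPM) and Cp in the cortex of pCtrl mouse 11 (15.0 CPM).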

How the results depend on the processing

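The number of the 10 genes that rose was 6 over pCtrl and 7 over PBS in the hippocampus, and 7 and 6 in the cortex. DESeq2 gave 7, 8, 8 and 8 (1008, 854, 713 and 667 of all 20271 genes), size factors of the DESeq2 kind gave the same counts as TMM (843, 758, 609 and 607), and no count filter gave 6, 7, 8 and 8 (744, 800, 685 and 684 of 40544). With only the groups compared in the fit, 2 rose over pCtrl and 5 over PBS in the hippocampus and 2 over each control in the cortex, where 395, 630, 333 and 346 of all genes rose beside 857, 773, 610 and 603 in the common fit. With the tissue composition score 0 rose in the hippocampus and 4 in the cortex over pCtrl (201 and 354 of all 20271 genes). Over PBS 8 and 6 rose with that score (862 and 616). Among mice 8 to 17 alone 0 rose over pCtrl in both tissues (55 and 10). With at least 10 counts in every library, which drops Lcn2 and Steap4, the counts were 4, 5, 4 and 4 (668, 481, 365 and 359 of 15430), and cortical Cd44 also lost its call. Without mouse 8 in both tissues 2 rose in the cortex over pCtrl. Without mice 8 and 9 the counts were 3 and 3 in the hippocampus and 1 and 1 in the cortex. With a single library left out they ranged from 2 to 8 over pCtrl and 3 to 8 over PBS in the hippocampus, and from 2 to 8 over each control in the cortex, with each lowest count without the mouse 8 library.

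Between PBS tissues, 1 of the 2 genes higher in the hippocampus (Serpina3n) also passed a fold of 2, single omissions gave 1 or 2, and the paired fit with the replicate block gave 3 higher. Timp1, lower in the hippocampus, and Aspg passed only with the block, which changed no other call but turned the sign of interaction values near 0 for Gfap, Timp1 and Aspg. In the comparisons of pCtrl with PBS and in the interactions 0 of the 10 were called under every alternative run. Directions reversed for Cd44 in the hippocampus over pCtrl (0.18), to -0.43 without mouse 8 in that tissue or in both, -0.17 without mice 8 and 9 and -0.02 without pCtrl mouse 75, while it was 0.51 without pCtrl mouse 37. They reversed for S1pr3 in the cortex over pCtrl without mice 8 and 9 (-0.025), for S1pr3 between PBS tissues (-0.04) without cortex of mouse 33 (0.0067) or hippocampus of mouse 14 (0.0070) or 33 (0.0026), where single omissions reached down to -0.11, and for the Serpina3n interaction over PBS without cortex of mouse 8 (0.014), against -1.44 without its hippocampus. These are the reversals among the α-IgLON5#1 and PBS tissue comparisons and the Cd44 and Serpina3n values named for the rest. Counting every comparison, 105 single-gene values changed sign, the others all in uncalled interactions and in pCtrl against PBS. The cause of these changes was not tested.

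Groups of 4 or 5 mice and, for Lcn2 and Steap4, control counts as low as 7 limit precision. What the mouse numbers and the hippocampal composition contribute beside the treatment was not tested further.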
